A study of Mus musculus with 300 samples.

Results

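The transcription factor genes Runx1, Runx2 and Runx3 and the gene of their shared partner, Cbfb, were described across single cells of the mouse embryonic thymus. They were taken by name, and all 4 are among the 13737 features of the deposited matrix. The cells were early thymic progenitors (ETPs), sorted from E15.5 embryos of 5x polychromILC mice. This strain carries reporter alleles in Id2, Bcl11b, Gata3 and Rora, as well as an allele that is left out here, and all cells share these alleles. The labels give 1 group of 300 cells, with no treatment and no second genotype, from the mouse ids 1A, 1B, 2A and 2B. The matrix holds 67, 69, 64 and 61 cells of these mice, 261 in all, and 39 labelled cells were not analysed here. The labels do not say whether a mouse id is 1 embryo or a pool, nor which sorting gates were applied. The questions asked were how often and how strongly each of the 4 genes was detected, whether they were detected in the same cells, and which other genes varied with them inside each mouse.

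Runx proteins are DNA-binding factors that recognise the sequence TGTGGT, or less often TGCGGT, through a conserved Runt domain. Cbfb encodes core-binding factor beta, which does not contact DNA but binds the Runt domain and strengthens its hold on DNA. Runx1 is required for the first blood stem cells and for early T-cell development, Runx3 is known for its roles in CD8 T cells, natural killer (NK) cells and innate lymphoid cells (ILC), and Runx2 is best known for bone formation and is also used by plasmacytoid dendritic cells. Each of the Runx genes has a distal and a proximal promoter.

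The label was checked against markers. The stem cell factor receptor gene Kit was detected in 91 ± 5.70% and Cd34 in 94.6 ± 3.12% of cells (mean ± SD, n = 4 mice). Il2ra, of the T specification list, was detected in 54.7 ± 16.2%. Of 19 progenitor genes 13 were each detected in at least 50% of cells, but so were 15 of 25 T specification genes. Such a share is common in this matrix: Runx2, at 58.6% of cells, was detected more often than only 50.4% of all genes. Cells with the genes of other lineages were among the sorted cells. A clustering made without the 4 genes gave 8 clusters, of which 23 cells were NK/ILC-like, 19 dendritic-like, 14 macrophage-like and 9 mast/basophil-like by their leading genes, and 70 and 54 cells were S-phase-like and G2/M-like. Clusters of 54 cells, led by Mpo, Pdgfrb and Trbc1, and of 18 cells, led by Gm9892 and Gm10800, were left unnamed. Lists and leading genes are also given below without the cells that carry another lineage's genes.

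Promoter sequences of the Runx genes are shown because they hold the letters that Runx proteins recognise. The distal promoter windows of the 3 genes each hold the reverse complement of TGTGGT as a tandem, 2 copies with 2 bases between them. The 30 bases around each tandem are shown on the strand of the gene, from RefSeq (build GRCm38.p6), with the copies in capitals:
Runx1 (chr16:92826031-92826060, minus strand): ggacctcataaacaACCACAgaACCACAag
Runx2 (chr17:44814589-44814618, minus strand): tcgcctcacaaacaACCACAgaACCACAag
Runx3 (chr4:135120497-135120526, plus strand): ggtctggtccctcaACCACAgaACCACAag
The tandem begins at base 29 and base 24 after the RefSeq start of Runx1 and Runx2, and 134 bases before that of Runx3. The longest identical run shared by the windows was 22 bases for Runx1 and Runx2, and 18 bases for Runx3 with either of them. Of 32851 promoter windows of the same 300 bases (250 before and 50 after a start), 7 held the tandem on either strand (0.0213%), whereas 22.4% held at least 1 TGTGGT or TGCGGT on either strand. The Runx2 window held 4 such motifs in all, none overlapping. The proximal windows of Runx1 and Runx3 and the window of Cbfb held none; a match is a description of letters and not a measured site. In the annotation of GRCm38 the genes lie at chr16:92601466-92826149 (Runx1, minus strand), chr17:44495987-44814797 (Runx2, minus strand), chr4:135120652-135177990 (Runx3, plus strand) and chr8:105170674-105217989 (Cbfb, plus strand).

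The deposited values are log2 expression and look corrected for batch; a gene without reads has a repeated lowest value in each of 4 sets of cells. A cell whose value lay off this level was counted as expressing the gene detectably. Sequencing depth in reads is not known, so the number of detected genes stands for it, with a median of 6114 per cell (3574 to 8667). Levels of different genes were not compared with each other, since it is not known whether values are per transcript length.

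Runx1 was detected in nearly every cell: 95.5%, 95.7%, 98.4% and 100% of the cells of mice 1A, 1B, 2A and 2B, or 97.4 ± 2.19% (mean ± SD, n = 4 mice). Its mean log2 value was 6.24, 6.16, 6.27 and 6.31 in these mice, a spread over mice of 0.06 (SD). Mouse means of Runx1 were thus close together, while single cells ran from -0.07 to 10.29. Runx2 was detected in 73.1%, 63.8%, 46.9% and 49.2% of cells, or 58.2 ± 12.4%, with mean log2 values of 3.28, 2.73, 2.76 and 2.46. Of the 4 genes Runx2 was detected in the fewest cells, and its share varied most among mice. Runx3 was detected in 77.6%, 82.6%, 87.5% and 91.8% of cells, or 84.9 ± 6.13%, with mean log2 values of 4.37, 4.91, 4.96 and 4.54. Cbfb was detected in 89.6%, 92.8%, 98.4% and 100% of cells, or 95.2 ± 4.88%, with mean log2 values of 6.67, 6.98, 7.15 and 6.83. Runx1, Runx3 and Cbfb were detected least often in mouse 1A and most often in mouse 2B, the mice with the lowest and highest median of detected genes (5857 and 6565), and the part of depth in these shares was not tested. Runx2 ran the other way and was detected most often in mouse 1A. The order of mice depends on the cut. With a cut 3 log2 units above the level of no reads, Runx1 was detected most often in mouse 1A (88.1%, against 86.9% in 2B). By that cut Runx3 led in mouse 2A (71.9%, against 67.2% in 2B and 55.2% in 1A). Cbfb still led in mouse 2B (91.8%, against 80.6% in 1A).

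**Figure D1:**
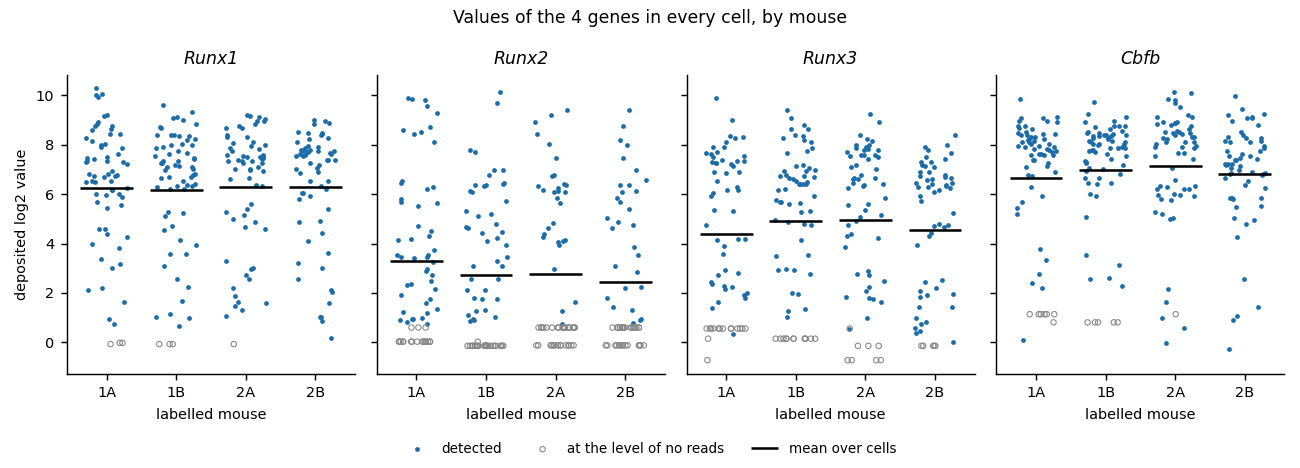
Deposited log2 value (y axis) of each gene in every cell, by labelled mouse (x axis); filled points are cells in which the gene was detected, open points lie at the level of no reads of their set, and black lines are means over all cells of a mouse. Open points are common for Runx2, whose detection share was 46.9 to 73.1%, and few for Runx1 and Cbfb.

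Counting error alone leaves wide limits at this number of cells: the exact 95% Clopper-Pearson interval of the Runx2 share was 60.9 to 83.2% in mouse 1A and 34.3 to 59.8% in mouse 2A. When only values at least 3 log2 units above the level of no reads counted as detected, the shares were 85.8 ± 2.26% for Runx1, 40.4 ± 6.26% for Runx2, 66 ± 7.41% for Runx3 and 87.1 ± 5.14% for Cbfb (n = 4 mice). Detection of Runx1 in set 3 and of Cbfb in sets 3 and 4 is counted in every cell, because those sets hold no repeated lowest value for the gene. Their lone lowest values there were 0.19 for Runx1 and -0.26 and 0.08 for Cbfb, near the levels of no reads found in other sets. The 0.19 and the -0.26 were in cells of mouse 2B, whose shares of 100% count them as detected.

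The detection of Runx2 differed between sets of cells, plates and pools as well as between mice. It was 64.6%, 76.1%, 58.9% and 30.4% in sets 1, 2, 3 and 4, and 66.7%, 58%, 59.2% and 32% on plates AF1, AF2, JW7 and JW8. Mouse 2A was sequenced in both pools. Its Runx2 share was 34.5% (10 of 29 cells) in the pool of plates AF1 and AF2 and 57.1% (20 of 35 cells) in the pool of JW7 and JW8, with exact 95% intervals of 17.9 to 54.3% and 39.4 to 73.7% that overlap. Mice 1A and 1B were sequenced in 1 pool only, as was 2B in the other, and mouse and pool cannot be told apart for them. Inside mouse 2B the Runx2 share was 61.1% (22 of 36 cells) on plate JW7 and 32% (8 of 25 cells) on JW8. The exact 95% intervals were 43.5 to 76.9% and 14.9 to 53.5%. Set 4 holds cells of both pools: 26 of mouse 2A on plate AF2, 25 of mouse 2B on JW8 and 5 of mouse 1A on AF2. The part of the set in the shares of the mice was not tested.

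The 32 cells from the first 8 wells of each set also stood apart, and 21 of them were NK/ILC-like. In these cells and in the 229 later ones, the mean log2 value was 4.68 and 6.46 for Runx1, 6.20 and 4.49 for Runx3, 1.96 and 2.94 for Runx2, and 6.91 and 6.91 for Cbfb.

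At least 1 Runx gene was detected in every cell. All of Runx1, Runx2 and Runx3 were detected in 126 cells (48.3%), 2 of them in 115 cells (44.1%) and 1 in 20 cells (7.66%). No cell lacked both Runx1 and Runx3 (0 of 261, which allows a share of up to 1.15%, counting error only). In set 3 every cell counts as having Runx1, and the cell with the lone lowest Runx1 value there (0.19) had Runx3 at 6.89. All 4 genes were detected in 119 cells (45.6%): 32, 35, 23 and 29 cells of mice 1A, 1B, 2A and 2B. The next most common pattern, Runx1, Runx3 and Cbfb without Runx2, was found in 85 cells (32.6%), and was the commonest in mouse 2A with 31 cells. Runx2 without Runx1 was found in 4 cells.

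Detection of the genes in the same cell was close to the product of their shares. Runx2 and Runx3 were both detected in 49.8% of cells, where the product of their shares over all cells was 49.6%, and the excess inside mice averaged 0.697 ± 2.11 percentage points (SD, n = 4 mice). For the other 5 pairs the average excess over mice lay between -0.488 percentage points (Runx1 and Runx3) and 0.196 percentage points (Runx1 and Runx2). Each of these 5 pairs holds Runx1 or Cbfb, which were detected in nearly every cell, so their excess could hardly leave 0. In mouse 2B it was 0 for all 5. These pairs therefore cannot show whether the genes are detected together.

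Levels of the 4 genes were at most weakly related across the cells of a mouse. The partial Spearman rho, given the number of detected genes and the set, averaged -0.117 ± 0.130 for Runx1 and Runx2, 0.005 ± 0.158 for Runx1 and Runx3, 0.021 ± 0.185 for Runx1 and Cbfb, 0.119 ± 0.210 for Runx2 and Runx3, -0.107 ± 0.070 for Runx2 and Cbfb, and 0.049 ± 0.070 for Runx3 and Cbfb (mean ± SD, n = 4 mice). With all cells Runx2 and Cbfb was the pair with 1 sign in every mouse, at -0.046, -0.047, -0.167 and -0.169. Runx2 and Runx3 varied most, at 0.120 in mouse 1A, 0.101 in 1B, -0.138 in 2A and 0.376 in 2B. A setting chosen after seeing the data left out the NK/ILC-, dendritic-, macrophage- and mast/basophil-like cells. The mean of Runx2 and Cbfb was then 0.020. Runx2 and Runx3 were then positive in 4 of 4 mice (0.017 to 0.329, mean 0.198), and Runx1 and Runx2 in 0 of 4 (mean -0.157). These values describe cells that differ in depth and, in mouse 2A, in pool, and weak correlations in sparse data are no finding.

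**Figure D2:**
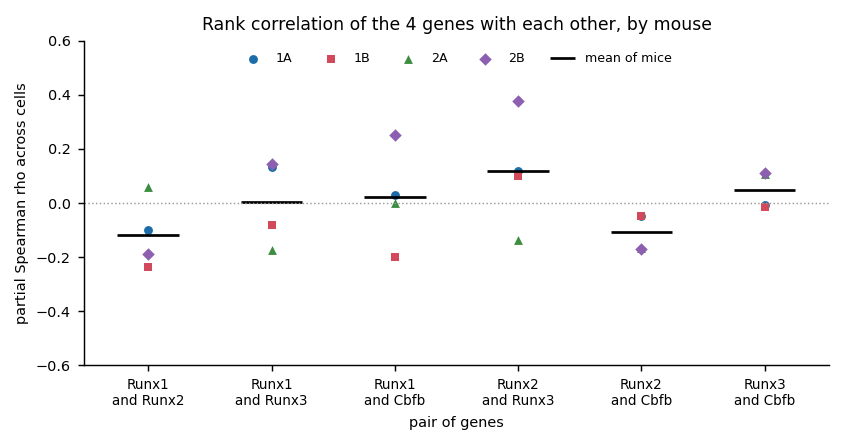
Partial Spearman rho across cells (y axis) for each pair of the 4 genes (x axis), with 1 point per labelled mouse and a black line at the mean. Points of most pairs lie on both sides of 0; the pair of Runx2 and Cbfb has 4 negative values, from -0.169 to -0.046.

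The cell clusters differed in their levels of the 4 genes. The clusters were built from the same cells, so these values are a description with no test, and neighbours are called apart where the gap between their means exceeded the larger of their SDs over mice with at least 2 cells of the cluster. Runx1 was highest in the mast/basophil-like cells, at 9.17 ± 0.11 (mean log2 ± SD, n = 2 mice). The 9 mast/basophil-like cells ran from 6.69 to 10.29, and 3 of the other 252 cells (1.19%) reached their median of 9.20. By mouse their mean log2 value was 9.25, 8.39, 9.09 and 7.54 in the cells of mice 1A, 1B, 2A and 2B, against 6.0, 6.13, 6.18 and 6.29 in the other cells; mice 1B and 2B have 1 such cell each. The cluster led by Mpo and Pdgfrb followed at 7.18 ± 0.64, and did not differ beyond the spread from the G2/M-like cells at 6.72 ± 0.51, nor these from the S-phase-like cells at 6.45 ± 0.18. Dendritic-like cells (5.12 ± 0.66), macrophage-like cells (4.87 ± 1.33) and the cluster led by Gm9892 (4.69 ± 0.79) lay below and did not differ among neighbours. NK/ILC-like cells had the least Runx1, at 3.30 ± 0.88 (n = 3 mice). By mouse they had 3.41, 2.37 and 4.11 in mice 1A, 1B and 2A, against 6.47, 6.66 and 6.67 in the other cells of these mice. Mouse 2B had no NK/ILC-like cell, and 21 of the 23 came from the first 8 wells of a set, a position whose part in these levels was not tested.

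Runx2 had its highest mean in the dendritic-like cells. It was detected in 19 of 19 of these cells, with a median log2 value of 8.73 (3.31 to 10.12), and 3 of the other 242 cells (1.24%) reached that median. Among these 3 were macrophage-like cells of mouse 2A, at 9.41 and 8.92. Runx2 was detected in 7 of 14 macrophage-like cells, with a median of 8.43 among the 7. Over all 14 the median was 0.69. The macrophage-like mean was 2.42 ± 1.95 (n = 3 mice), which leaves out the only such cell of mouse 1A, at 8.43. By mouse the dendritic-like cells had mean log2 values of 8.73, 7.70, 7.79 and 8.36 in the cells of mice 1A, 1B, 2A and 2B, against 2.32, 2.51, 2.52 and 2.15 in the other cells. The cluster and the other cells did not overlap in any mouse mean, and the mice hold 10, 3, 3 and 3 dendritic-like cells. The next cluster, the G2/M-like cells, had 3.25 ± 0.56, a gap of 4.89 log2 units, and from there to the NK/ILC-like cells at 1.64 ± 0.64 no neighbours differed beyond their spread. Runx2 was lowest in the cluster led by Gm9892, at 0.79 ± 0.71, where it was detected in 5 of 18 cells. The dendritic-like cells had the lowest median number of detected genes of all clusters, 4532 against 6155 in the other cells.

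Runx3 had its highest mean in the NK/ILC-like cells, at 6.22 ± 1.47 (n = 3 mice), within the spread of the cluster led by Mpo and Pdgfrb at 5.44 ± 0.58. By mouse the NK/ILC-like cells had 4.68, 6.37 and 7.61 in mice 1A, 1B and 2A, against 4.35, 4.72 and 4.47 in the other cells. The difference was 0.33 in mouse 1A and 3.14 in mouse 2A. By median the NK/ILC-like cells had 7.12, 7.35 and 7.64 in mice 1A, 1B and 2A, against 4.18, 5.69 and 5.26 in the other cells. Mouse 1A has 5 such cells, the lowest at -0.72. The S-phase-like and G2/M-like cells were alike in mean, at 4.97 ± 0.04 and 4.96 ± 0.52. Runx3 was lowest in the cluster led by Gm9892, at 1.24 ± 0.85, and was 2.00 ± 2.55 in the mast/basophil-like cells, which had the most Runx1. The NK/ILC-like cells thus had the least Runx1 and the highest mean of Runx3.

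Cbfb had its highest means in the cycling cells, at 7.80 ± 0.41 in S-phase-like and 7.54 ± 0.40 in G2/M-like cells, and was detected in 70 of 70 and 54 of 54 of them. By median the NK/ILC-like cells were highest, at 8.41 against 8.10 in S-phase-like and 7.92 in G2/M-like cells. Cbfb was also detected in 14 of 14 macrophage-like cells. It was lowest in the dendritic-like cells, at 2.94 ± 1.65, a gap of 2.86 log2 units to the next cluster. By mouse the dendritic-like cells had 3.55, 2.17, 1.12 and 4.90 in the cells of mice 1A, 1B, 2A and 2B, against 7.22, 7.20, 7.44 and 6.93 in the other cells. Their medians were 2.47, 2.58 and 1.14 in mice 1A, 1B and 2A, against 7.91, 7.89 and 8.09 in the other cells. In mouse 2B, with 3 such cells, the median was 7.42 against 7.21. The low mean there goes with a lowest cell at -0.26. Cbfb was detected in 13 of 19 dendritic-like cells, and its median there was 2.19. The cluster with the most Runx2 was thus the cluster with the least Cbfb. Its low number of detected genes moves with the low Cbfb, and its part was not tested. The remaining clusters held between 5.80 ± 0.89 and 6.96 ± 0.50.

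**Figure D3:**
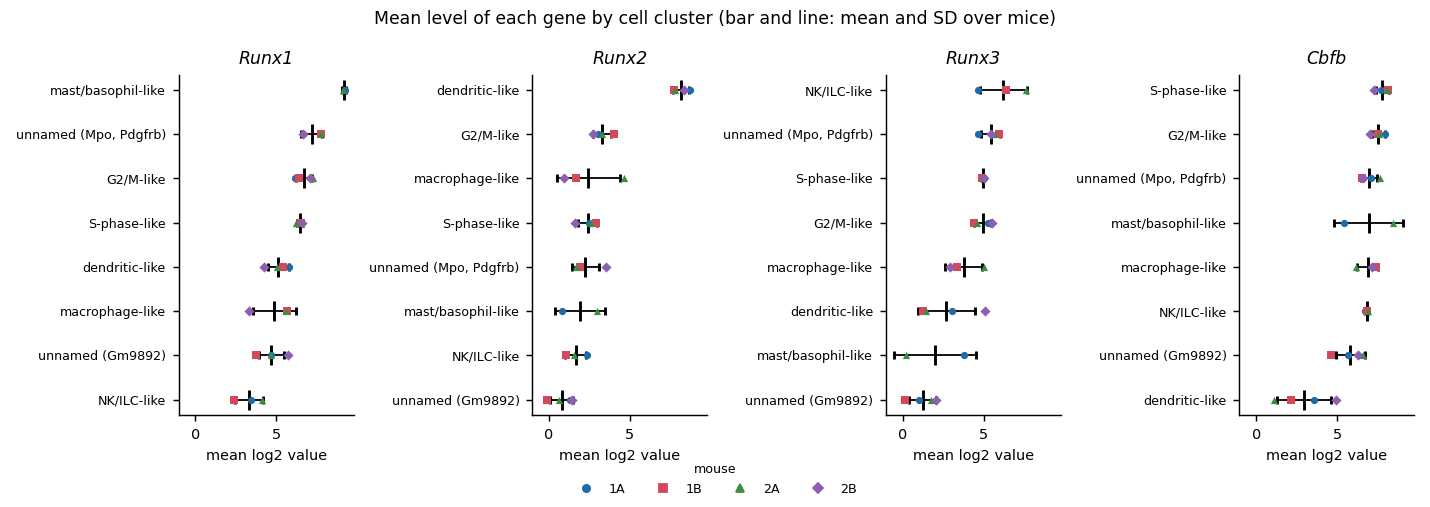
Mean deposited log2 value (x axis) of each gene in 8 cell clusters (y axis, ordered by mean within each gene); points are mice with at least 2 cells of the cluster, and the black bar and line are their mean and SD. Runx2 in dendritic-like cells stands 4.89 log2 units above its next cluster, and Cbfb in the same cells stands 2.86 below its next.

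**Figure D4:**
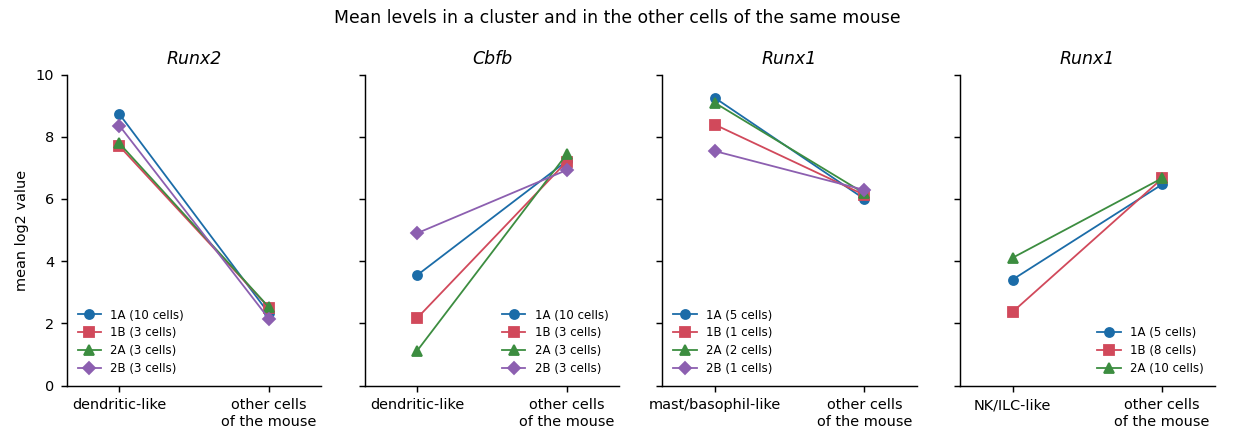
Mean deposited log2 value (y axis) in the named cluster (left) and in the other cells (right) of the same mouse, with 1 line per mouse and the number of cluster cells in the legend. Runx2 runs from 7.70 to 8.73 in dendritic-like cells and from 2.15 to 2.52 in the others. Means of Cbfb in dendritic-like cells and of Runx1 in NK/ILC-like cells lie below the others in each mouse shown. By median, Cbfb in the 3 dendritic-like cells of mouse 2B was not lower (7.42 against 7.21).

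Genes that varied with each of the 4 were then tested. Inside each mouse, cells with detected Runx2 were set against cells without it, and for Runx1, Runx3 and Cbfb, detected in over 80% of cells, cells above the median of their mouse and set against those at or below it. Each of 12438 other genes was fitted on this class with the number of detected genes and the set as covariates, and the 4 mouse coefficients, whose mean is the log2 difference given below, were tested against 0 with limma (two-sided, Benjamini-Hochberg adjusted p under 0.05). No gene passed for Runx1, Runx2, Runx3 or Cbfb (0 of 12438 for each, 0%), while 776, 1169, 900 and 820 genes had an unadjusted p under 0.05. Mice 2A and 2B share 2 sets of cells, with 35 and 36 cells in set 3 and 26 and 25 in set 4. If these mice are not independent, the p-values are too small. Without the number of detected genes as a covariate the median difference of all genes is 0.07 for Runx2, 0.13 for Runx3 and 0.17 for Cbfb. With it these are -0.06, 0.02 and 0.02, and the median for Runx1 is 0.05 either way. Some list values are given both with this covariate and without it, and the others only with it. Mean values by mouse are deposited values before that fit, so their gap can differ from the fitted difference. The genes named below carry differences and counts of mice, and no call, unless a call is stated.

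No difference of 1 of the 4 genes between classes of another passed in limma. Of 12 such differences 0 were called, the lowest adjusted p was 0.605, and they ran from -0.51 to 0.68 log2 units. Runx3, for example, averaged 4.53, 5.17, 4.74 and 5.32 in Runx2-detected cells of mice 1A, 1B, 2A and 2B, against 3.95, 4.46, 5.15 and 3.79 in cells without Runx2. It was higher with Runx2 in 3 of 4 mice.

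For Runx1, the genes most like it in rank across cells included Rab44, a Rab GTPase (mean rho 0.294), Emilin1, an extracellular matrix glycoprotein (0.283), Yaf2, a Polycomb component (0.276), and Bcl7a, a chromatin remodelling subunit (0.272). The 99th percentile over 12431 genes was 0.194. Rab44 averaged 2.98, 3.09, 3.68 and 3.12 in Runx1-high cells of mice 1A, 1B, 2A and 2B, against 2.08, 1.68, 1.85 and 0.88 in Runx1-low cells. The log2 difference was 1.59 (SE 0.30), positive in 4 of 4 mice, with a limma adjusted p of 0.746, and was 0.74 without the NK/ILC-, dendritic-, macrophage- and mast/basophil-like cells. The lowest rhos were those of Pea15a (-0.254) and of Klrd1, an NK cell receptor chain (-0.249).

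The list medians furthest from 0 with Runx1 were those of G2M, dendritic, mast and basophil, and NK genes. Of 8 tested mast and basophil genes 8 were higher in Runx1-high cells, with a median difference of 0.47 against 0.05 over all genes and 0 calls. Cpa3, a mast cell carboxypeptidase, averaged 4.64, 4.64, 5.85 and 6.64 in Runx1-high cells, against 4.46, 3.06, 4.00 and 4.83 in Runx1-low cells (difference 1.30). Gata2, a progenitor and mast cell factor, averaged 2.05, 1.51, 1.51 and 1.17 in Runx1-high cells, against 0.90, 0.92, 0.95 and 0.45 in Runx1-low cells (difference 0.70). Without the NK/ILC-, dendritic-, macrophage- and mast/basophil-like cells the mast and basophil median was -0.08, with 2 of 8 genes positive, and the differences of Cpa3 and Gata2 were 0.69 and 0.05. Of 19 progenitor genes 15 had positive differences (median 0.33), and Spi1, the myeloid and early thymic factor PU.1, had a difference of 0.92, positive in 4 of 4 mice, while Flt3, a cytokine receptor of progenitors and dendritic cells, had -0.82, positive in 1 of 4. Without those cells 13 were positive, with a median of 0.30, and Spi1 and Flt3 had 0.33 and -0.66. Of 15 dendritic genes 3 were positive (median -0.49), among them neither H2-Aa (-0.86) nor Cd74 (-1.08), both of antigen presentation. Without those cells 5 of 15 were positive, at a median of -0.13, and H2-Aa and Cd74 had -0.68 and -1.01. Of 15 NK genes 3 were positive (median -0.44), and Il2rb, a cytokine receptor chain, had -0.80; without the same cells 12 of 12 tested were positive, at a median of 0.14, and without the first 8 wells of each set 12 of 13, at 0.16. Of 20 G2M genes 1 was positive (median -0.59), with Mki67 lower in Runx1-high cells of every mouse at 4.70, 5.51, 4.68 and 5.37, against 5.74, 6.29, 6.02 and 5.77 in Runx1-low cells (difference -0.84, and -1.04 without those cells). Without those cells 0 of 20 were positive, at a median of -0.80. The list gene with the largest difference with Runx1 was Ighm, the immunoglobulin mu heavy chain gene of the B cell list, at 5.04, 3.32, 3.54 and 2.54 in Runx1-high cells, against 6.07, 5.74, 4.81 and 3.99 in Runx1-low cells (difference -1.43, limma adjusted p 0.746, and -0.90 without those cells).

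For Runx2, the genes most like it were Ighj1, an immunoglobulin heavy chain joining segment (mean rho 0.367), Pacsin1, an endocytic adaptor (0.360), A530032D15Rik (0.359), Tlr3, a receptor of double-stranded RNA (0.350), and Tcf4, a factor required by plasmacytoid dendritic cells (0.349), where the 99th percentile was 0.202. The first 4 were detected in only 10.7 to 22.2% of cells. Tcf4, detected in 84.3% of cells, averaged 5.21, 4.41, 4.41 and 5.34 in Runx2-detected cells of mice 1A, 1B, 2A and 2B, against 1.81, 3.11, 2.91 and 3.91 in cells without Runx2. Its log2 difference was 1.78 (SE 0.37; limma adjusted p 0.393), and 0.94 without the NK/ILC-, dendritic-, macrophage- and mast/basophil-like cells. The lowest rhos were those of Dut, which clears dUTP (-0.313), and of the granule protein gene Nkg7 (-0.303).

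Dendritic genes were the list furthest above the rest with Runx2. Of 15 tested, 12 had positive differences and 8 of these an unadjusted p under 0.05, with 0 calls and a median of 0.90 against -0.06 over all genes. Siglech, a plasmacytoid dendritic cell lectin, averaged 3.53, 2.01, 2.49 and 2.35 in Runx2-detected cells, against 1.29, 1.22, 1.37 and 0.61 in the others (difference 1.76), and Flt3 had a difference of 1.72. The mean log2 level of the 16 dendritic genes in the matrix was 2.09 to 2.75 over the mice in Runx2-detected cells and 1.55 to 1.95 in the others, with no marker at 0 detection in either class. Without the NK/ILC-, dendritic-, macrophage- and mast/basophil-like cells the median was -0.14 with 6 of 15 positive, and Siglech had a difference of 0.05. Flt3 then kept a difference of 1.32 and Mef2c, a progenitor factor, one of 1.57 (1.76 with all cells), neither past the threshold. Of 19 progenitor genes 11 were positive with all cells (median 0.14) and 16 without those cells (median 0.39), and 17 without the depth covariate (median 0.55).

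Calls were made with Runx2 only under stricter classes, in which cells with Runx2 less than 3 log2 units above the level of no reads counted as low. Then 2 of 12438 genes passed, both higher with Runx2: Ccr9, a chemokine receptor of thymus-homing progenitors and plasmacytoid dendritic cells (log2 difference 2.56), and Ighm (2.35), each with a limma adjusted p of 0.0402. Under the other settings the adjusted p ran from 0.0714 to 0.835 for Ccr9 and from 0.0932 to 0.812 for Ighm. In the main classes Ccr9 averaged 3.93, 3.27, 3.48 and 2.90 in Runx2-detected cells, against 1.12, 0.40, 1.47 and 1.58 in the others (difference 2.66, adjusted p 0.327). Ighm averaged 6.04, 5.07, 5.02 and 4.22 in Runx2-detected cells, against 4.32, 3.63, 3.47 and 2.37 in the others (difference 2.24, adjusted p 0.105). These differences were 1.02 and 1.15 without the NK/ILC-, dendritic-, macrophage- and mast/basophil-like cells; Ccr9 is itself among the leading genes of the dendritic-like cluster. Of the 20 S phase genes 0 were positive with Runx2 (median -0.62, 9 with an unadjusted p under 0.05), Gins2 and Rrm2, both of DNA replication, at -1.40 and -1.20. Without those cells 3 of 20 were positive, at a median of -0.31, and without the depth covariate 5 of 20, at -0.19. Mpo (-1.15), Cpa3 (-1.45), the T-cell receptor gene Trbc1 (-1.07) and the granzyme gene Gzmb (-1.05) were lower with Runx2 in 4 of 4 mice, while the interleukin-7 receptor gene Il7r (1.08) and Lmo2 (0.77) were higher in 4 of 4. None of these passed in limma, and without those cells they were -0.15, -0.68, -0.50, -1.03, 0.37 and 0.68 in the same order.

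For Runx3, the most similar genes were Lat2, a signalling adaptor (mean rho 0.313), Rasal3, a Ras GTPase-activating protein (0.298), Rgs1, a regulator of G protein signalling (0.294), Dok2, an adaptor that dampens receptor signalling (0.283), and Eef2, a translation elongation factor (0.282), with a 99th percentile of 0.192. Dok2 averaged 8.37, 8.30, 8.42 and 7.67 in Runx3-high cells of mice 1A, 1B, 2A and 2B, against 6.09, 6.85, 6.96 and 5.76 in Runx3-low cells. The groups of mouse means do not overlap, and the log2 difference of 1.43 varied little among mice (SD 0.16), but its limma adjusted p was 0.601 and the difference was 0.84 without the NK/ILC-, dendritic-, macrophage- and mast/basophil-like cells. The lowest rhos were those of Slc12a2, an ion cotransporter (-0.276), and the histone gene Hist1h2ap (-0.268).

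With Runx3, NK and ILC genes were mostly positive and G2M genes negative. Of 15 NK genes 14 were positive (median 0.51 against 0.02 over all genes), and of 21 ILC genes 18 (median 0.40), with 0 calls. Ccl5 (0.77) and Il2rb (0.70) had the largest NK differences, and the integrin gene Itgb7 averaged 8.23, 8.04, 8.13 and 7.73 in Runx3-high cells, against 7.27, 7.57, 7.20 and 6.77 in Runx3-low cells (difference 0.81). Without the NK/ILC-, dendritic-, macrophage- and mast/basophil-like cells 5 of 12 NK genes and 10 of 20 ILC genes were positive, with medians of -0.00 and 0.01, and Ccl5, Il2rb and Itgb7 had 0.29, -0.00 and 0.51; without the first 8 wells of each set the medians were 0.10 and 0.12. Gata3, a T-cell and ILC factor, had a difference of 1.11 in 4 of 4 mice and 0.94 without those cells, at 5.28, 5.59, 5.93 and 5.55 in Runx3-high cells, against 3.94, 4.00, 4.60 and 4.09 in Runx3-low cells. Smad3, a transducer of TGF-beta signals, had 1.02, and 1.00 without them. Of 20 G2M genes 0 were positive with Runx3 (median -0.69), and 13 had an unadjusted p under 0.05. Plk1 and Birc5, a mitotic kinase and a mitotic survival factor, had -1.03 and -0.99. The G2M median was -0.89 without the cells of other lineages, with 0 of 20 positive. Without the depth covariate it was -0.28, with 5 of 20 positive.

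For Cbfb, the most similar genes were Rtn3, a reticulon of the endoplasmic reticulum (mean rho 0.264), Csrp1, a LIM domain protein (0.259), Mad2l1, of the spindle checkpoint (0.257), Eif3m, a translation initiation subunit (0.254), and Dapk2, a kinase (0.251), with a 99th percentile of 0.178. Mad2l1 averaged 6.24, 6.55, 6.10 and 6.72 in Cbfb-high cells of mice 1A, 1B, 2A and 2B, against 4.42, 4.42, 4.33 and 5.03 in Cbfb-low cells (difference 1.33, SE 0.23, limma adjusted p 0.684), and the difference was 1.03 without the NK/ILC-, dendritic-, macrophage- and mast/basophil-like cells. The lowest rhos were those of Cd300lf, an inhibitory receptor of myeloid cells (-0.283), and Gm48587 (-0.260).

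Cell cycle genes were mostly higher in Cbfb-high cells. Of 20 G2M genes 20 were positive with Cbfb (median 0.69 against 0.02 over all genes, 12 with an unadjusted p under 0.05), and of 20 S phase genes 18 (median 0.32), with 0 calls. Tpx2, a spindle assembly factor, averaged 5.00, 5.24, 5.21 and 5.94 in Cbfb-high cells, against 3.03, 3.20, 3.62 and 3.69 in Cbfb-low cells (difference 1.47), and Aurkb, a mitotic kinase, had 1.33. The list's mean log2 level was 4.81 to 5.03 over the mice in Cbfb-high cells and 3.58 to 3.91 in Cbfb-low cells, without overlap. Without the NK/ILC-, dendritic-, macrophage- and mast/basophil-like cells 16 of 20 G2M genes were positive (median 0.45) and 18 of 20 S phase genes (median 0.36), with Tpx2 at 0.94. Without the depth covariate 20 of 20 were positive in both lists, at medians of 1.10 and 0.86. Of 15 NK genes 14 were positive (median 0.62), with Nkg7 at 0.95; without those cells 10 of 12 were, at a median of 0.08 and with Nkg7 at 0.07, and without the first 8 wells 5 of 13, at -0.01. Of 8 mast and basophil genes 8 were positive (median 0.32), and 7 of 8 without those cells (0.14), and likewise 7 of 8 without the depth covariate (0.16). Of 15 dendritic genes 3 were positive (median -0.37; 11 of 15 and 0.08 without those cells), with the dendritic cell factor Irf8 at 2.69, 2.52, 2.36 and 2.00 in Cbfb-high cells, against 5.05, 3.85, 3.99 and 3.54 in Cbfb-low cells (difference -1.21, and -0.77 without those cells).

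No known partner of Runx factors passed the test with any of the 4 genes, and of the genes described as Runx targets Ccr9 passed with Runx2 under the stricter classes alone. Of 18 tested partners and corepressors, 14 were positive with Runx1, 7 with Runx2, 10 with Runx3 and 12 with Cbfb, at medians of 0.24, -0.10, 0.04 and 0.15, with 0 calls in limma. Without the depth covariate 14, 13, 12 and 17 were positive, at medians of 0.25, 0.16, 0.38 and 0.45, so the side on which they lie with Runx2 depends on it. With the depth covariate but without the NK/ILC-, dendritic-, macrophage- and mast/basophil-like cells 15, 8, 9 and 11 were positive, at 0.16, -0.04, 0.01 and 0.11. Tle4 and Tle1, corepressors bound by the C terminus of Runx proteins, had differences of 0.65 and 0.46 with Runx1. Aes, a short relative of these, had 0.64 with Cbfb. Hipk2, a kinase that phosphorylates Runx1, averaged 1.72, 2.36, 2.13 and 2.02 in Runx3-high cells, against 2.90, 2.61, 2.88 and 3.35 in Runx3-low cells (difference -1.11), and had -0.59 with Runx2. Of 23 tested genes described as Runx targets, 8, 10, 16 and 15 were positive with Runx1, Runx2, Runx3 and Cbfb, at medians of -0.16, -0.08, 0.15 and 0.13. Without those cells 13, 10, 11 and 17 of 22 were positive, at 0.13, -0.03, 0.02 and 0.17, so the median with Runx1 changes sign. Mpo, a myeloid enzyme gene among them, had 1.03 with Runx1 and -1.15 with Runx2, and 0.65 and -0.15 without those cells. Cdkn1a, a cell cycle inhibitor, had 0.85 with Cbfb. Of 9 members of the progenitor complex of Runx1, Tal1 and Gata2, 7 were positive with Runx1 (median 0.30), and 8 without those cells (0.18). Of 12 TGF-beta pathway genes 8 were positive with Runx1 (median 0.02), with Zeb2 at 0.79 and Tgfbr2 at 0.67. Without those cells 8 were positive at a median of 0.27, with Zeb2 at 0.99 and Tgfbr2 at 1.42. Of 9 osteogenic and mesenchymal targets of Runx2 5 were in the matrix and each was detected in at most 19.5% of cells. The 1 that could be tested, Col1a1, had a difference of -0.21 with Runx2.

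**Figure D5:**
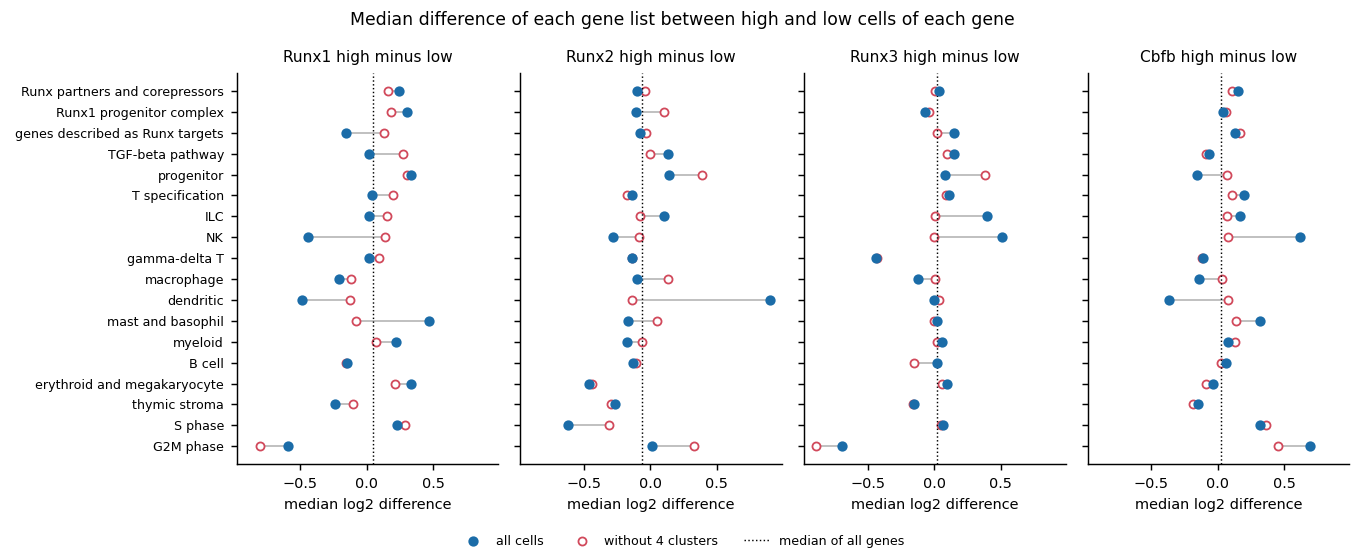
Median log2 difference between high and low cells (x axis) of the tested genes of each list (y axis), for Runx1, Runx2, Runx3 and Cbfb; filled points use all cells, open points leave out the NK/ILC-, dendritic-, macrophage- and mast/basophil-like clusters, and the dotted line is the median of all genes. The dendritic list with Runx2 lies at 0.90 with all cells and at -0.14 without the 4 clusters, while G2M genes keep their side with Runx1, Runx3 and Cbfb.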

How the data were processed

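Single cells were sorted into plates, reverse transcribed from oligo-dT primers, amplified and sequenced as Nextera XT libraries, per the labels' protocols. The authors' deposited matrix holds log2 expression values (-4.13 to 15.99), which look corrected for batch; Salmon and GRCm38 are named in the submitters' processing notes, without versions, and no source used here names the correction or the filters. Within each of 4 sets of cells that share exact values (at least 14.2% within a set, 0% across), the repeated lowest value of a gene was taken as its level of no reads (tolerance 1e-06). Detected genes were counted over 12054 genes with that level in all sets. IDs were matched to GENCODE symbols (13578 matched). The planned analysis allowed for counts or TPM; the log2 values were used as deposited.

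Cells were clustered (Ward, 8 clusters, 20 principal components, 2000 variable genes, without the 4 genes). Genes detected in at least 10% of cells were fitted inside each mouse with at least 5 cells a class, and tested with limma 3.58.1 in R 4.3.3 on 4 mice, checked on simulated data; cells are not replicates. If the mouse ids are not separate animals, p measures only the spread between these cell groups. Intervals are exact 95% Clopper-Pearson and cover counting error only. Named genes are the 5 with the highest and the 2 with the lowest mean rho with each of the 4 and, in each list, those past the threshold or else the 2 with the largest absolute difference; 1 gene under this rule is not reported here. The 4 genes and the lists were chosen with earlier results of these data known, so no list is independent support. Alternatives were each mouse left out, plate in place of set, no depth term, other detection filters, stricter classes, sets as units, and cells left out by cluster or well.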

Additional observations from a re-analysis of the deposited data

Results flagged for a closer look

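Of 40 groups of 4 mouse values examined, 1 held a mouse apart from the others, where chance gives about 1 in 20. In the unnamed cluster led by Mpo, Pdgfrb and Trbc1, the mean log2 value of Runx2 was 3.52 in mouse 2B, against 1.89, 1.93 and 1.66 in mice 1A, 1B and 2A. The gap to the nearest mouse was 0.855 of the whole range, above Dixon's 95% critical value. Runx2 was detected in 8 of the 11 cells of mouse 2B in this cluster.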

How the results depend on the processing

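Of the settings tried, 1 changed a count of calls: stricter classes gave 2 genes with Runx2 (Ccr9 and Ighm), where 0 were called in the main classes. For Runx1, Runx3 and Cbfb 0 genes were called under every setting run, including each mouse left out. Requiring 3 log2 units above the level of no reads moved the detection shares to 85.8% (Runx1), 40.4% (Runx2), 66% (Runx3) and 87.1% (Cbfb); with a mouse left out they stayed within the spread over mice. The mean rho of Runx2 and Cbfb was 0.020 without the NK/ILC-, dendritic-, macrophage- and mast/basophil-like cells. The difference of Il2rb changed sign with Runx1 without those cells (0.17) and without the first 8 wells (0.04), with Runx3 without those cells (-0.00), and with Cbfb without the first wells (-0.01); that of Rrm2 with Cbfb did so with S and G2M phase levels as covariates (-0.01). The cause was not tested. The other 1167 differences computed kept their sign and their side of the threshold. Values aligned to the level of no reads gave identical differences, since the set is a covariate. Leaving out the cluster led by Gm9892, adding phase levels, splitting Runx3 by detection, and, for the rhos, leaving out cells of other lineages or the first wells were chosen after seeing the data. The number of detected genes as a covariate moved list medians, as given beside some of them. With Runx2, the G2M median was 0.01 with it (10 of 20 positive) and 0.47 without it (17 of 20). The T specification and the erythroid and megakaryocyte medians with Runx2 were -0.14 and -0.46 with it, and -0.01 and -0.18 without it. Read depth is not known, and p depends on whether mice 2A and 2B are independent. No paired analysis was possible because the labels give 1 group, so no groups share replicate numbers; classes of cells were compared inside each mouse.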

Other observations

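In the main classes the lists below had 0 calls with any of the 4 genes; Ighm, of the B cell list, was called with Runx2 under the stricter classes alone. The gamma-delta T list had its lowest median with Runx3 (-0.44, 3 of 7 positive) and stayed at -0.43 without the NK/ILC-, dendritic-, macrophage- and mast/basophil-like cells. The T specification list lay between -0.14 (Runx2) and 0.20 (Cbfb), and the macrophage list between -0.21 (Runx1) and -0.10 (Runx2). The myeloid list ran from -0.18 (Runx2) to 0.22 (Runx1), the B cell list from -0.15 (Runx1) to 0.06 (Cbfb), the erythroid and megakaryocyte list from -0.46 (Runx2) to 0.33 (Runx1), and the thymic stroma list from -0.27 (Runx2) to -0.15 (Runx3 and Cbfb).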
